A study of Mus musculus with 7 samples.

Results

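The genes described here were 43 that encode ionotropic and metabotropic glutamate receptors, the auxiliary subunits that travel with the receptors, and the scaffold and adhesion proteins of the excitatory postsynapse. The members are set by gene symbol alone, although the set was drawn up with earlier results of these data known, and each symbol matched 1 of the 47729 genes in the count table. Glutamate, the main excitatory transmitter of the forebrain, opens AMPA, NMDA and kainate receptors, which are ion channels built from subunits, and acts more slowly through metabotropic receptors coupled to G proteins. Auxiliary subunits bring the channels to the membrane and set their kinetics. Scaffold proteins of the postsynaptic density hold receptors opposite the site of release.

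Total RNA of whole forebrain was sequenced from mice at postnatal day 15 (P15), in 4 libraries from *Lhx6*+/- mice (control) and 3 from *Lhx6*-/- mice (mutant), on an F1(C57BL/6 X 129Sv) background. *Lhx6* encodes a transcription factor of interneurons born in the medial ganglionic eminence (MGE), and the mutant mice were constitutive nulls for it (allele Lhx6tm2Vpa), while every control mouse also carried 1 mutant copy. Each library pooled 2 animals. No source used here says that the pools came from separate litters, so p-values measure the spread between these pools. The comparison asked how the transcriptome of the forebrain differed between the genotypes. In such bulk RNA, fewer cells of a type and less RNA per cell cannot be told apart.

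Libraries summed to between 32556304 and 38069151 expected counts, and a count of 0 would leave room for 3 counts, which is 0.0788 to 0.0921 CPM (counts scaled to the library's total). Such limits cover counting error only. *Lhx6* itself lay between 476 and 615 normalized counts in controls and between 70.1 and 76.6 in mutants. Libraries carry the numbers 2, 3, 10 and 11 (control) and 5, 12 and 13 (mutant), and the first principal component, with 39.6% of the variance, set libraries 2, 3 and 5 apart from libraries 10 to 13. Both runs of numbers hold both genotypes, so each genotype difference could also be read within a run. Summed Y-linked RNA was 2.22 and 2.56 CPM in control libraries 11 and 10 and between 62.8 and 128 CPM in the other 5, so no mutant library had the low level, although the sample records list 1 mutant pool of 2 females. Markers of MGE-derived interneurons summed to between 283 and 328 CPM in controls and between 101 and 123 CPM in mutants. Those of cortical excitatory neurons summed to between 2500 and 2837 CPM in controls and between 2701 and 3266 CPM in mutants. The most abundant of these 10 excitatory markers, *Slc17a7*, had mean normalized counts of 67951 in controls and 80946 in mutants. The log2 fold change of mutants over controls was positive in 3 of the 10 and negative in 7, with a median of -0.09.

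All 43 genes passed the filter on low counts and were tested. Normalized counts are counts scaled to the mean effective library size, and a gene was called changed where the quasi-likelihood test of edgeR gave a p of 0.05 or less after Benjamini-Hochberg adjustment over 19684 genes (4.85% of which were called). One of the 43, *Cacng5*, was higher in mutants, beside a background of 2.97% of all tested genes. Lower in mutants were 6 genes, *Gria1*, *Grin3a*, *Grid1*, *Grm5*, *Cacng3* and *Homer2*, which make up 13.95% of the 43 beside 1.87% of all tested genes. The remaining 36 were not called. Most differences were small: 36 genes lay within 0.5 of 0 on the log2 scale, and for 25 of the 36 genes not called, the 95% interval of the log2 fold change also lay within 0.5, a change of 1.41-fold. The median log2 fold change of mutants over controls was -0.09 in the 43 genes, with 15 positive and 28 negative values, and -0.01 over all tested genes. Genotypes did not overlap in 14 genes (32.6%, beside 19.7% of all tested genes), with the mutant libraries above the controls in 2 genes (10.7% of all tested genes) and below them in 12 (9.00% of all tested genes).

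**Figure D1:**
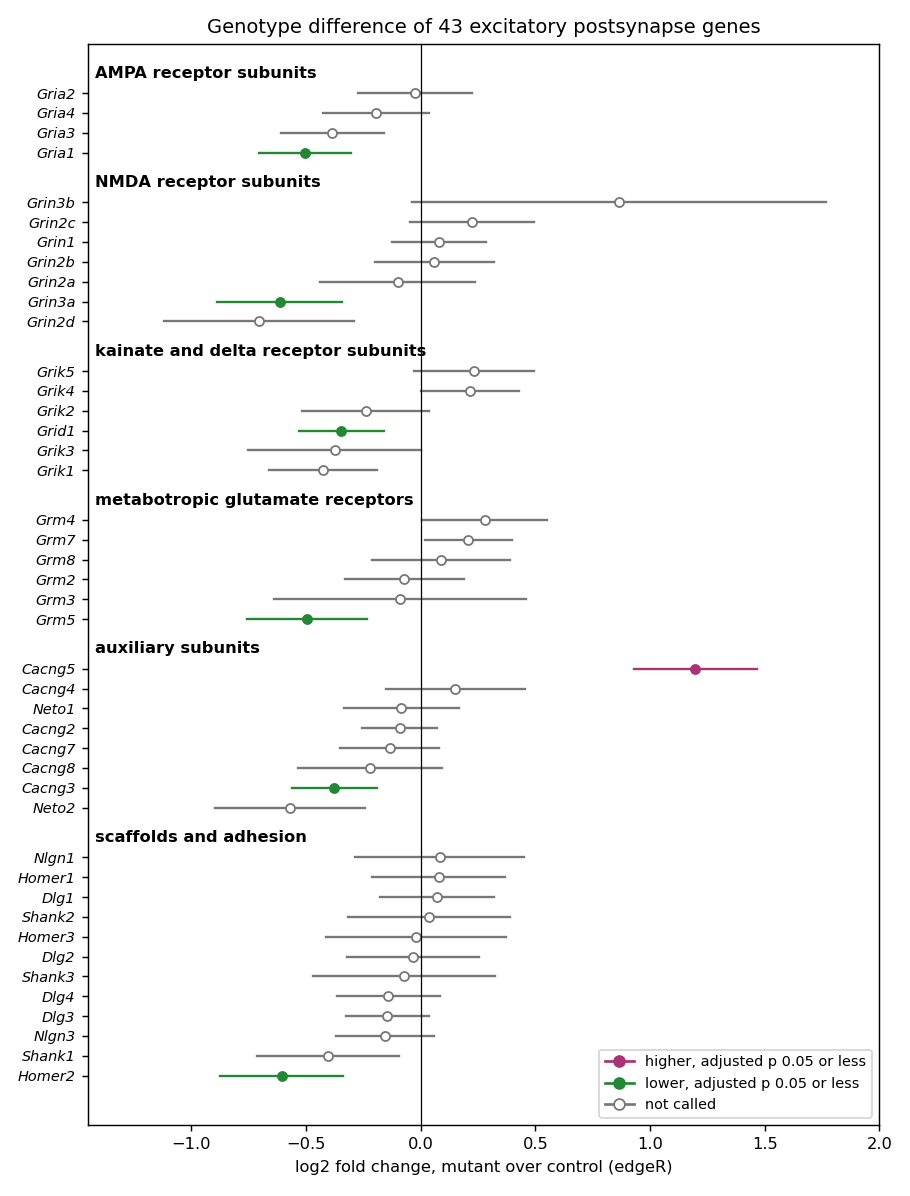
Log2 fold change of mutant over control libraries for each of the 43 genes, grouped by role, with its 95% interval from edgeR (n = 4 control and 3 mutant libraries). *Cacng5* stands alone at 1.20, the 6 genes called lower lie between -0.61 and -0.35, and most intervals include 0.

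The gene that rose, *Cacng5*, encodes γ-5, a member of the transmembrane AMPA receptor regulatory protein (TARP) family, auxiliary subunits that bind the AMPA receptor channel. Its start region is shown because it was the only one of the 43 genes called higher, and those of *Homer1* and *Homer2* because these paralogues, which encode scaffolds linking metabotropic receptors to the postsynaptic density, differed in their change. The sequences are from RefSeq on GRCm38.p6 (29 of the 43 genes have an entry). They read 5′ to 3′ and end at or just before the start of transcription given by the entry. Capitals mark Sp1 boxes (GGGCGG, on either strand) and cyclic AMP response element (CRE) half-sites (TGACG, on either strand).
Cacng5 (chr11:107915056-107915305, minus strand): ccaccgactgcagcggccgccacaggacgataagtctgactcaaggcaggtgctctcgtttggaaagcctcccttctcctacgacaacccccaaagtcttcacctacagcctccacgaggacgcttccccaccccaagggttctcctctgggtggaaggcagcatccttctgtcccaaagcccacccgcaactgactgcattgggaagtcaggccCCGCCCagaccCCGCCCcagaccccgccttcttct
Homer1 (chr13:93303507-93303756, plus strand): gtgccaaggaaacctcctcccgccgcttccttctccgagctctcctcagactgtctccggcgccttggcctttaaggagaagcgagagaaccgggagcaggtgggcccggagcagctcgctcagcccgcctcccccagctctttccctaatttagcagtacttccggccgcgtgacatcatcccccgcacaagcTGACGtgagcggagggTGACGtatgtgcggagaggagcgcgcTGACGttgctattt
Homer2 (chr7:81706945-81707175, minus strand): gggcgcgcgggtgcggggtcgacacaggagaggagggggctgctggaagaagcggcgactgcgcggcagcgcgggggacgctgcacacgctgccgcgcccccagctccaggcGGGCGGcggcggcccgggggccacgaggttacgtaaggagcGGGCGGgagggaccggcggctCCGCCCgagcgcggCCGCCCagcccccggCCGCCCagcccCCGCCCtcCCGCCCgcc

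The *Cacng5* stretch held 2 Sp1 boxes, that of *Homer2* held 7, and that of *Homer1* held 3 CRE half-sites. The box was present in 32.7% and the half-site in 17.8% of 32851 promoter windows of 250 bases. The *Homer2* window was shortened by 19 bases that lie in an annotated exon. The start given by that *Homer2* entry is 602 bases downstream of the gene's annotated start, so the window lies within the annotated gene. GC content was 62.0% for *Cacng5*, 62.4% for *Homer1* and 82.2% for *Homer2*, beside a median of 52.4% over all windows. Each of the 3 genes has 2 entries, and the one nearest the gene's annotated start is shown. The other entry held no Sp1 box and no CRE half-site in any of the 3. These matches describe the letters and are not evidence of a bound factor.

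AMPA receptors carry most fast excitatory transmission, and their 4 subunits are encoded by *Gria1* to *Gria4*. None of the 4 had a positive fold change, and 1, *Gria1*, was called lower. *Gria1* (chr11:57011387-57330244, GRCm38), whose product GluA1 is known for its part in synaptic plasticity, had a normalized count of 13451, 12368, 13109 and 11596 in controls 2, 3, 10 and 11, and of 9520, 8864 and 8326 in mutants 5, 12 and 13. Every mutant library lay below every control library. The means were 12631 ± 825 (SD, n = 4) and 8903 ± 598 (SD, n = 3), a log2 fold change of -0.50 (SE 0.0887, adjusted p = 0.0154). *Gria3*, which is X-linked, gave 5445, 6160, 6825 and 6709 normalized counts in controls and 4551, 4821 and 5057 in mutants. Its genotypes also did not overlap, but its log2 fold change of -0.39 missed the threshold with edgeR (adjusted p = 0.0643) and passed it with DESeq2 (adjusted p = 0.0053). *Gria2*, whose edited subunit makes the channel impermeable to calcium, had values between 15378 and 18742 in controls and between 14862 and 17683 in mutants, and its log2 fold change of -0.03 had a 95% interval from -0.27 to 0.22. *Gria4*, a subunit found in many interneurons, had a log2 fold change of -0.20 (95% interval -0.43 to 0.03).

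The make-up of the AMPA receptor pool was read per length, as each subunit's percent of counts per kilobase of exon summed over *Gria1* to *Gria4*. *Gria2* made up 23.8%, 24.1%, 26.4% and 27.7% of the pool in controls 2, 3, 10 and 11, and 28.6%, 32.0% and 33.1% in mutants 5, 12 and 13. All mutant libraries were above all control libraries, and the difference was 4.67 percentage points in the run of libraries 2, 3 and 5 and 5.49 in libraries 10 to 13. The share was 25.5% ± 1.90 (SD, n = 4) in controls and 31.2% ± 2.35 (SD, n = 3) in mutants, with p = 0.0571 in a two-sided exact permutation test, the smallest p that 4 against 3 libraries allow, and 0.114 after adjustment over 4 such measures. *Gria1* made up 49.1% of the pool in controls and 43.1% in mutants, *Gria3* 14.9% and 14.3%, and *Gria4* 10.5% and 11.4% (exact permutation p = 0.229 for *Gria4*). The level of each share rests on the length used, the union of exons. That union was 15548 bases for *Gria2* and 9859 for *Gria3*, beside longest transcripts of 10371 and 5206 bases. For *Gria1* the lengths were 6043 and 5546 bases. Shares from other lengths are not given here. A share can move with any subunit of the pool, and here the fold change of *Gria1* was called while that of *Gria2* was not.

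**Figure D2:**
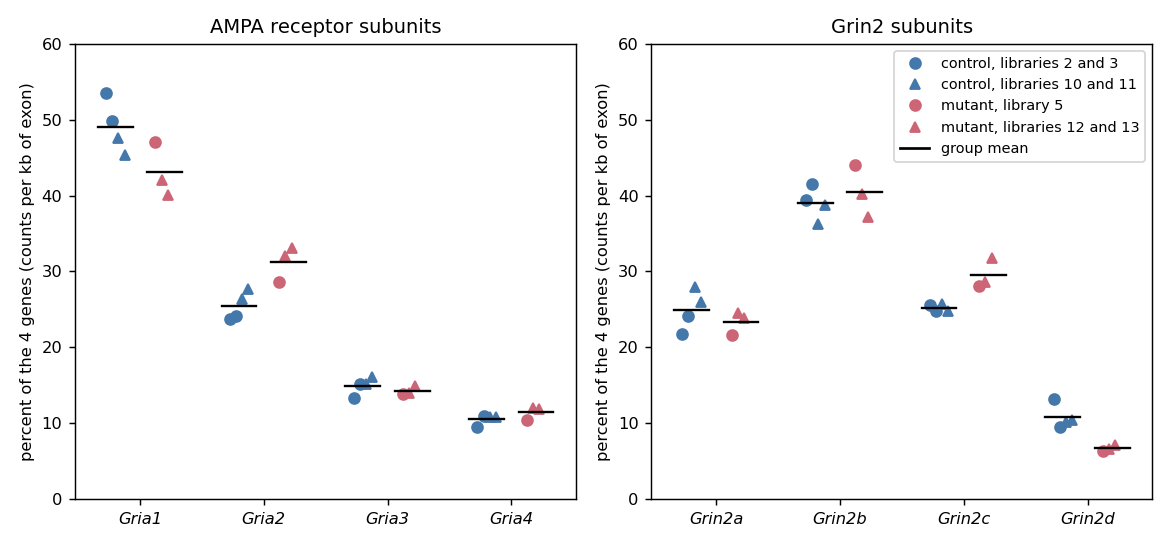
Percent of AMPA receptor subunit transcripts and of Grin2 subunit transcripts taken by each gene, per library, from counts per kilobase of exon. Points are libraries (circles for 2, 3 and 5, triangles for 10 to 13) and lines are genotype means, and the *Gria2* share lies between 23.8% and 27.7% in controls and between 28.6% and 33.1% in mutants.

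NMDA receptors are coincidence detectors that pass calcium, built from the obligatory subunit of *Grin1* with subunits of the *Grin2* or *Grin3* genes. Of these 7 genes 1 was called lower and none higher, and their median log2 fold change was 0.06. *Grin3a*, whose product GluN3A lowers calcium entry in juvenile neurons and is abundant in somatostatin interneurons, gave 2836, 2225, 2977 and 2528 normalized counts in controls and 1518, 1818 and 1840 in mutants. All 3 mutant libraries lay below the lowest control. The means were 2642 ± 335 (SD, n = 4) and 1725 ± 180 (SD, n = 3), a log2 fold change of -0.61 (SE 0.12, adjusted p = 0.0239). *Grin2d*, a subunit with slow kinetics known from interneurons, gave 1234, 685, 923 and 1050 normalized counts in controls and 558, 610 and 622 in mutants. The controls were spread widely, with library 3 nearest the mutants, and the genotypes did not overlap. Its log2 fold change of -0.71 (SE 0.181) was the lowest of the 43 genes, with an adjusted p of 0.0659 with edgeR and 0.0037 with DESeq2.

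The more abundant NMDA receptor genes moved little. *Grin1* had between 22118 and 26308 normalized counts in controls and between 24185 and 26936 in mutants, a log2 fold change of 0.08 (95% interval -0.12 to 0.29). *Grin2a* and *Grin2b*, the subunits whose balance shifts as synapses mature, had log2 fold changes of -0.10 (95% interval -0.44 to 0.24) and 0.06 (95% interval -0.20 to 0.32). The log2 ratio of *Grin2a* to *Grin2b* per length was -0.65 ± 0.218 (SD, n = 4) in controls and -0.79 ± 0.204 (SD, n = 3) in mutants, and the ranges overlapped (exact permutation p = 0.457). *Grin2d* made up 13.2%, 9.52%, 10.2% and 10.4% of the 4 Grin2 transcripts in controls and 6.32%, 6.62% and 7.15% in mutants. All mutants were below all controls, with the smallest p of 0.0571 in the exact permutation test and 0.114 after adjustment over the 4 measures. *Grin2c* had a log2 fold change of 0.22 and *Grin3b* of 0.86, neither called. *Grin3b* was near the limit of detection, at between 8.77 and 34.2 normalized counts, and 32.1% of its exon bases overlap *Tmem259*.

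Kainate receptors, encoded by *Grik1* to *Grik5*, tune transmission on both sides of the synapse, and the delta subunit of *Grid1* joins synapses through secreted linkers. *Grid1* (chr14:34819825-35583379) was the 1 called gene among these 6. It gave 2354, 1993, 2303 and 2361 normalized counts in controls and 1735, 1814 and 1765 in mutants. The mutant libraries were close to each other and all below the controls, among which library 3 was low. The means were 2253 ± 175 (SD, n = 4) and 1771 ± 40.2 (SD, n = 3), a log2 fold change of -0.35 (SE 0.0818, adjusted p = 0.0492), just inside the threshold. *Grik1*, a kainate subunit prominent in interneurons, gave 434, 434, 401 and 384 normalized counts in controls and 321, 307 and 294 in mutants. Its genotypes did not overlap, and its log2 fold change of -0.43 had an adjusted p of 0.0536 with edgeR and 0.0077 with DESeq2. *Grik2* gave 1541, 1505, 1992 and 1864 normalized counts in controls and 1292, 1543 and 1546 in mutants. Those values overlapped, and within each run of library numbers the mutants were below the controls. Its log2 fold change was -0.24, with an adjusted p of 0.355 with edgeR and 0.0172 with the run in the fit. *Grik3* had a log2 fold change of -0.38, and *Grik4* and *Grik5*, which encode the high-affinity subunits, of 0.21 and 0.23, none of them called.

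Of the 6 metabotropic receptors, *Grm5* was called lower. Its product mGluR5 sits beside the postsynaptic density and signals through phospholipase C. *Grm5* (chr7:87584168-88134907) gave 5867, 4719, 5802 and 5599 normalized counts in controls and 3368, 4322 and 4006 in mutants. All mutant libraries were below the lowest control. The means were 5497 ± 531 (SD, n = 4) and 3899 ± 486 (SD, n = 3), a log2 fold change of -0.50 (SE 0.115, adjusted p = 0.0466). *Grm2*, *Grm3*, *Grm4*, *Grm7* and *Grm8*, receptors that lower cyclic AMP, were not called. Their log2 fold changes were -0.07 for *Grm2*, -0.09 for *Grm3*, 0.28 for *Grm4*, 0.21 for *Grm7* and 0.09 for *Grm8*. *Grm7* passed the threshold, higher in mutants, on libraries 10 to 13 alone (adjusted p = 0.0317). *Grm3*, which astrocytes also express, varied more between the runs than between the genotypes, from 1809 to 3564 normalized counts in controls.

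Auxiliary subunits moved in both directions. *Cacng5* (chr11:107874605-107915055, minus strand, GRCm38) had a normalized count of 544, 401, 497 and 506 in controls 2, 3, 10 and 11, and of 1028, 1173 and 1150 in mutants 5, 12 and 13. Every mutant library lay far above every control library. The means were 487 ± 61.0 (SD, n = 4) and 1117 ± 77.8 (SD, n = 3), or 229% of control, a log2 fold change of 1.20 (SE 0.118, adjusted p = 0.00128, 95% interval 0.93 to 1.47). Per length, in TPM (counts per kilobase of exon scaled to the same total in every library), *Cacng5* was at 10.97 ± 1.54 (SD, n = 4) in controls and 25.6 ± 0.459 (SD, n = 3) in mutants, in both genotypes below *Cacng3*, at 139 and 109 TPM. Its neighbour *Cacng4*, which encodes another TARP and ends 80.0 kb away, had a log2 fold change of 0.15 (95% interval -0.15 to 0.45). The call for *Cacng5* held in all 17 alternatives, with log2 fold changes between 1.11 and 1.27 and adjusted p between 3.95e-17 and 0.0104.

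*Cacng3*, the gene of the TARP γ-3, was called lower. It gave 4564, 4191, 4465 and 4612 normalized counts in controls and 3614, 3548 and 3138 in mutants, without overlap. The means were 4458 ± 189 (SD, n = 4) and 3433 ± 258 (SD, n = 3), a log2 fold change of -0.38 (SE 0.0814, adjusted p = 0.0355). *Neto2*, an auxiliary subunit of kainate receptors, gave 2339, 2788, 3181 and 3066 normalized counts in controls and 1555, 1989 and 2201 in mutants. Its mutants were all below its controls, and its log2 fold change of -0.57 had an adjusted p of 0.0613 with edgeR and 0.0049 with DESeq2. Its paralogue *Neto1* had a log2 fold change of -0.08. *Cacng2*, which encodes stargazin, had one of -0.09, *Cacng7* of -0.14 and *Cacng8* of -0.22, and none was called.

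**Figure D3:**
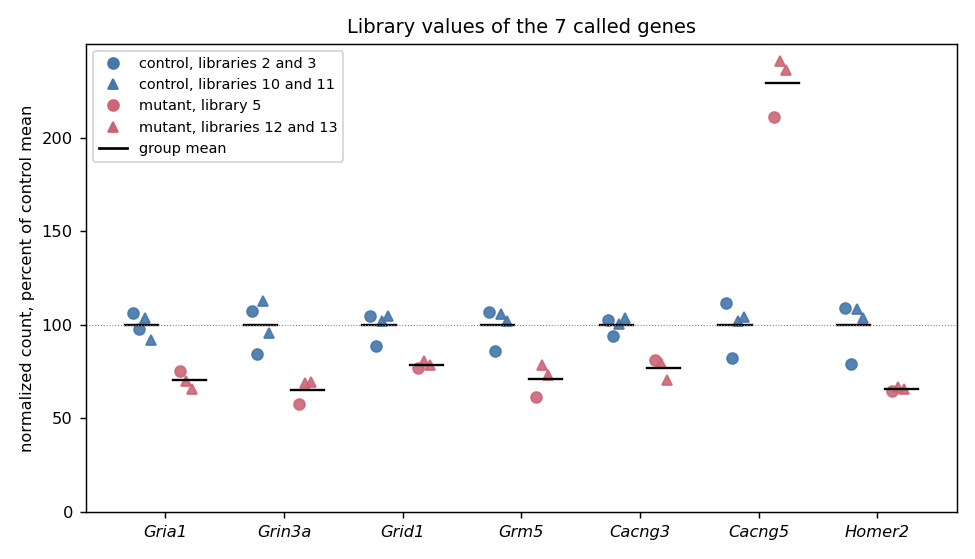
Normalized counts of the 7 called genes in each library, as percent of the gene's control mean. Points are libraries (circles for 2, 3 and 5, triangles for 10 to 13), lines are genotype means, genotypes overlap in none of the 7 genes, and the mutant mean of *Cacng5* is at 229% of control.

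Among the 12 scaffold and adhesion genes, *Homer2* was called lower. *Homer2* gave 3785, 2735, 3763 and 3601 normalized counts in controls and 2238, 2318 and 2284 in mutants. The mutants were tightly grouped below the lowest control, library 3. The means were 3471 ± 497 (SD, n = 4) and 2280 ± 40.5 (SD, n = 3), a log2 fold change of -0.61 (SE 0.118, adjusted p = 0.0238). *Homer1* had a log2 fold change of 0.08 (95% interval -0.21 to 0.37) and *Homer3* of -0.02 (95% interval -0.41 to 0.37). *Shank1*, a master scaffold of the density, gave 37560, 26447, 30262 and 37821 normalized counts in controls and 25776, 25946 and 23162 in mutants. The highest mutant lay just below control library 3. The log2 fold change of *Shank1* was -0.40, with an adjusted p of 0.155 with edgeR and 0.0428 with DESeq2, while *Shank2* and *Shank3* had log2 fold changes of 0.04 and -0.07.

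The membrane-associated guanylate kinases, which anchor receptors through PDZ domains, were not called. *Dlg4*, the gene of PSD-95, had the highest level per length of the 43 genes, at 731 ± 101 TPM (SD, n = 4) in controls and 675 ± 82.0 TPM (SD, n = 3) in mutants, and a log2 fold change of -0.14 (95% interval -0.36 to 0.08). *Dlg1* had a log2 fold change of 0.07, *Dlg2* of -0.04 and *Dlg3* of -0.15. The neuroligins, adhesion proteins that bind presynaptic neurexins, had log2 fold changes of 0.08 for *Nlgn1* and -0.16 for *Nlgn3*, which shares 41.2% of its exon bases with an overlapping gene model.

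**Figure D4:**
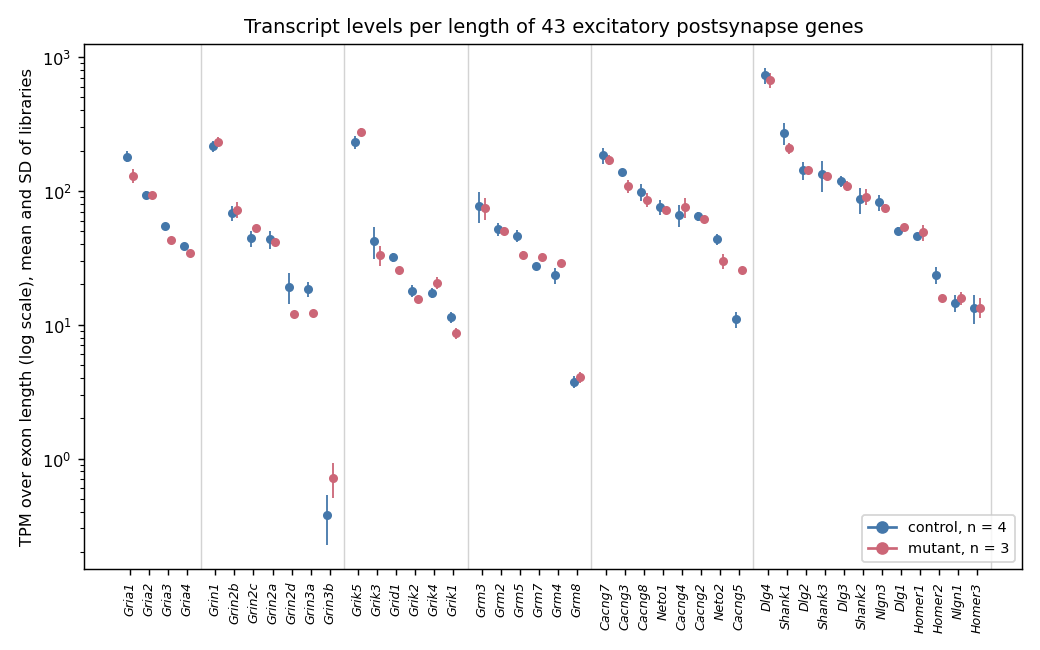
Level of each of the 43 genes per length, in TPM on a log axis, as genotype means with SD (n = 4 control and 3 mutant libraries). Levels run from 0.381 TPM for *Grin3b* to 731 TPM for *Dlg4* in controls, and for most genes the genotypes lie close together.

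The 6 lower calls depended on which libraries and which test were used, while their direction did not. With DESeq2, 11 of the 43 genes (25.6%) were called lower beside 3.60% of all tested genes, the added genes being *Gria3*, *Grin2d*, *Grik1*, *Neto2* and *Shank1*. With the run entered as a covariate, 11 were called lower beside 5.04% of all tested genes, *Grik2* taking the place of *Shank1*. *Cacng5* was the 1 gene called higher in both, beside 4.79% of all tested genes with DESeq2 and 6.16% with the run. All 6 genes called with edgeR were also called in both. Without control library 10, mutant library 12 or mutant library 13, 0 of the 43 were called lower with edgeR, with 1 called without mutant library 5, 2 without control library 11, 3 without control library 2 and 8 without control library 3. The calls over all genes ranged from 302 to 971 in these 7 fits. *Gria1* was called in 4 of them, *Grin3a* in 2 and the other 4 genes in 1 each, and all 6 kept a negative fold change in all 17 alternatives. Other settings lost calls: 4 genes were called lower with the Y-linked level as covariate (adjusted p = 0.0889 for *Grid1*, 0.0811 for *Grm5* and 0.0632 for *Cacng3*, with *Grik1* added) and 4 with upper quartile scaling (0.0635 for *Grid1* and 0.0521 for *Grm5*). With limma-voom 5 were called lower, *Grid1* being lost (adjusted p = 0.0599), and 5 with no filter on low counts, *Grid1* (0.0719) and *Cacng3* (0.0531) being lost and *Neto2* added. Unadjusted p was 0.05 or less in 14 of the 43 genes and in 3590 of the 19684 tested.

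Within the run of libraries 2, 3 and 5 the mutant library is compared with 2 controls, and within libraries 10 to 13 each genotype has 2 libraries. The genotype difference had the same sign in both runs in 37 of the 43 genes (86.0%), 26 of them lower and 11 higher in mutants, beside 70.5% of all genes with a value in both. *Cacng5* was higher by 1.12 and 1.21 on the log2 scale, and *Gria1* lower, at -0.44 and -0.52. *Grin3a* was at -0.74 and -0.59, and *Homer2* at -0.54 and -0.68. On libraries 10 to 13 alone, 12 of the 43 genes were called lower, beside 4.09% of all tested genes, and 2 higher (*Cacng5* and *Grm7*), beside 5.46%. *Grm8* and *Grin2a* were among the genes whose sign differed between the runs, at -0.18 and 0.22 for *Grm8* and 0.02 and -0.25 for *Grin2a*.

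**Figure D5:**
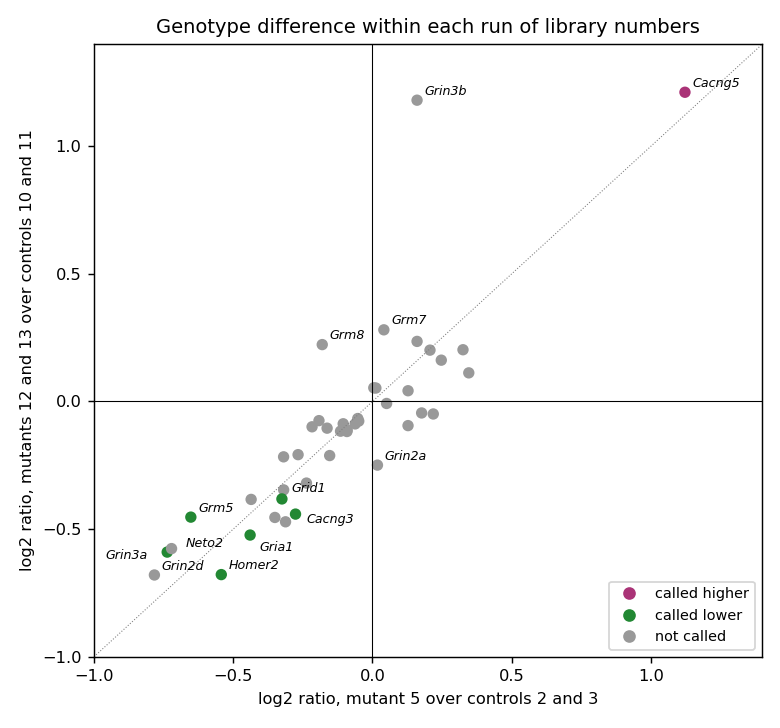
Log2 ratio of mutant over control libraries in libraries 2, 3 and 5 (horizontal axis) and in libraries 10 to 13 (vertical axis) for the 43 genes. Of these, 37 have the same sign on both axes, with *Cacng5* at 1.12 and 1.21.

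Other genes of the excitatory postsynapse, a list of 41 further scaffold, trafficking and adhesion genes, were all tested, and 2 were called lower and none higher. *Lrrtm4*, a synaptic adhesion gene, gave 1408, 1519, 1494 and 1276 normalized counts in controls and 972, 978 and 1027 in mutants, without overlap. Its log2 fold change was -0.52 (SE 0.0845, adjusted p = 0.0112). *Lin7b*, a scaffold gene, gave 1862, 2109, 1684 and 1621 normalized counts in controls and 1369, 1270 and 1265 in mutants, also without overlap, with a log2 fold change of -0.48 (SE 0.103, adjusted p = 0.0334). The median log2 fold change of the 41 genes was -0.11, with 11 positive and 30 negative values. Of 7 glutamate transporter genes, which load vesicles or clear the transmitter, edgeR called 0, with an unadjusted p of 0.05 or less in 3. DESeq2 called 1, *Slc1a6*, lower in mutants, and limma-voom 0. *Slc1a6* gave 256, 236, 282 and 273 normalized counts in controls and 181, 193 and 193 in mutants, without overlap. Its log2 fold change of -0.47 had an adjusted p of 0.0561 with edgeR and 0.0164 with DESeq2. *Slc17a7*, the vesicular transporter of cortical neurons, had a log2 fold change of 0.25 (adjusted p = 0.203), and *Slc1a2*, the main astrocyte transporter, of 0.44 (adjusted p = 0.2).

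Several cell type markers moved with genotype beside these genes, and their part in the differences was not tested. Of 7 MGE interneuron markers, 5 were called lower and 1 higher, with *Sst* at a log2 fold change of -3.19 and *Pvalb* at -3.05. Of 10 markers of interneurons from the caudal ganglionic eminence, 4 were called higher (450 to 531 CPM in controls, 590 to 696 in mutants). The list had 6 positive and 4 negative log2 fold changes. The negative ones, none called, were -0.57 for *Calb2*, -0.41 for *Nr2f2*, -0.22 for *Lamp5* and -0.07 for *Prox1*. The most abundant of the 10, *Cnr1*, had mean normalized counts of 6257 in controls and 11398 in mutants. Among the cortical excitatory markers, *Rorb* was called lower, and of 7 striatal markers 1, *Penk*, was higher, with the list at 357 to 543 CPM in controls and 517 to 747 in mutants. Astrocyte markers summed to between 5249 and 7822 CPM in controls and between 8690 and 10190 in mutants, with *Gfap* called higher of 7, and oligodendrocyte markers to between 6756 and 8788 CPM and between 4849 and 6034, with 3 of 7 called lower. Of 5 pan-neuronal markers edgeR called 0, with an unadjusted p of 0.05 or less in 2 and no call by DESeq2 or limma-voom (3948 to 4516 CPM in controls, 3737 to 4115 in mutants). As checks of the dissection, cerebellar markers summed to between 15.7 and 18.7 CPM in controls and between 13.2 and 14.2 in mutants with *Gabra6* under the filter, thalamic and hypothalamic markers to between 48.3 and 65.5 CPM and between 48.0 and 53.5 with *Hcrt*, *Pmch* and *Oxt* under the filter, and olfactory bulb markers to between 13.6 and 17.3 CPM and between 17.2 and 25.2, with *Th* called higher and *Cdhr1* lower. Of 8 immediate early genes, which neurons switch on with activity, 2 were called higher, *Fosb* and *Npas4*, and 0 lower. The list had 4 positive and 4 negative log2 fold changes, with a median of 0.05. Its sums overlapped between genotypes, at 561 to 836 CPM in controls and 512 to 956 in mutants. DESeq2 called 2 of the 8 genes and limma-voom 1.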

How the data were processed

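Forebrain total RNA of 4 control and 3 mutant pools was sequenced as 36-base single-end reads. The authors trimmed the reads with cutadapt 1.9.1, aligned them with Bowtie2 2.2.9 to GRCm38 transcripts and deposited expected counts per gene from RSEM 1.2.31, which shares reads among matching genes, so genes with close copies are less certain. The fraction of 36-base words shared with other genes was under 5% for 34 of the 43 genes and at most 3.76% for the called ones. The kit does not mark strand, so overlapping and antisense genes cannot be told apart, and the strand setting of the counting is not given in the sources used here. A deposited comparison table (DESeq2 log2 fold changes, standard errors, statistics and p-values) was used for gene names only. Columns name a genotype and a library number, and 0 columns of per-sample values were left unused. RNA integrity ran from 9 to 10 in the sample records and was not tied to columns.

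Counts were rounded, a gene was kept if 3 or more libraries held 10 or more counts, libraries were scaled by TMM, and genotypes were compared by edgeR 4.0.16 (quasi-likelihood test, R 4.3.3), with Benjamini-Hochberg adjustment at 0.05. Alternatives were DESeq2 1.42.0, limma-voom (limma 3.58.1), other scalings and filters, unrounded counts, covariates, libraries 10 to 13 only and each library left out. Levels per length used the union of exons. Shares were compared by exact permutation over libraries (scipy 1.17.1). Scripts were tested on simulated data. Pairs of libraries of 1 genotype differed by a chi-square of 10.2 to 73.3 per degree of freedom, above sampling noise, so each counted as 1 replicate. The 43 genes, the lists and the run of library numbers were chosen with earlier results of these data known. All 43 genes are named, as are called genes of the other lists (a result for a marker gene is not reported here), and genes called by edgeR, by DESeq2 or with the run have every library's value.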

Additional observations from a re-analysis of the deposited data

Results flagged for a closer look

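Dixon's test was applied to the 4 control libraries for 47 measures (the 43 normalized counts and 4 subunit measures), and chance alone flags about 1 in 20 groups. In 5 of them 1 library lay apart from the others. Control library 3 was the low one in 4 cases: *Grik4* had 1030 normalized counts there and up to 1261 in the other controls, *Grid1* 1993 and up to 2361, *Neto1* 2514 and up to 3362, and *Dlg2* 17197 and up to 24304. Control library 2 had the low value for the share of *Gria4* among AMPA receptor subunit transcripts, at 9.42% beside up to 10.9%.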

How the results depend on the processing

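The count of genes called higher was 1 in every alternative but libraries 10 to 13 only, which gave 2. The count called lower, 6, was 11 with DESeq2, 11 with the run of library numbers as covariate, 12 on libraries 10 to 13 only, 8 with at least 10 counts in all 7 libraries, 5 with limma-voom and with no filter, 4 with the Y-linked level as covariate and with upper quartile factors, 6 with RLE factors and unrounded counts, and 0 to 8 with 1 library left out. Of the 41 other postsynaptic genes, 2 were called, against 5 with DESeq2, 8 with the run, 4 with the Y-linked level as covariate, 6 on libraries 10 to 13 only and 0 to 3 with 1 library left out. Of the 7 transporters, 0 were called, against 1 with DESeq2, 1 with the run, 2 on libraries 10 to 13 only and 0 to 1 with 1 library left out. The cause of these shifts was not tested. Of 730 results for single genes under alternatives, 639 kept their direction and side of the threshold, 25 passed it newly, 40 lost it and 26 changed sign, all in genes near 0. With the Y-linked level as covariate the log2 fold change was 0.0798 for *Gria2*, 0.0890 for *Grin2a*, 0.0080 for *Grm2*, 0.21 for *Grm3* and 0.0354 for *Dlg2*. On libraries 10 to 13 it was -0.0411 for *Grin2b* and -0.0366 for *Shank2*. *Homer3* was at 0.00061 with limma-voom and 0.0045 with upper quartile factors. With 1 library left out, values ran from -0.0697 to 0.0608 for *Gria2*, -0.0065 to 0.13 for *Grin2b*, -0.16 to 0.00073 for *Grm2*, -0.25 to 0.10 for *Grm3*, -0.0053 to 0.21 for *Grm8*, -0.0012 to 0.16 for *Dlg1*, -0.14 to 0.0261 for *Dlg2*, -0.0799 to 0.15 for *Shank2*, -0.20 to 0.0543 for *Shank3*, -0.0693 to 0.17 for *Homer1* and -0.13 to 0.11 for *Homer3*. No paired analysis was possible because the columns carry a library number and not the replicate number of the sample records, so a fit with that block was not run. *Grin3b* had few counts in every library.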
